A study of Phaseolus vulgaris and Phaseolus lunatus with 12 samples.

Results

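Alpha-dioxygenases are haem enzymes that add oxygen to the carbon next to the acid group of a fatty acid. The 2-hydroperoxy acid that forms loses carbon dioxide to give an aldehyde shorter by a carbon, or is reduced to a 2-hydroxy acid. They share their protein domain with animal haem peroxidases, a group that includes the mammalian cyclooxygenases, and their transcripts are known to rise in leaves of Arabidopsis and tobacco attacked by pathogens and in wild tobacco fed on by insects. Lipoxygenases, which open the route to jasmonate and to green leaf volatiles, oxidise the same kind of fatty acids at other carbons.

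The genes described here are those whose deposited domain family is An_peroxidase, in the gene tables of 2 beans. This family held 4 of 73321 genes, with 2 of 43997 in *Phaseolus lunatus* (lima bean, variety Peladilla) and 2 of 29324 in *Phaseolus vulgaris* (California Red Kidney, a cultivar of common bean). In *P. lunatus* both carry the product name alpha-dioxygenase 1, that of the Arabidopsis protein entry (DOX1) in the deposited annotation, and in *P. vulgaris* both are listed as hypothetical proteins and known by their domain alone. The expressed gene of each species, Pl04G0000018900.v1 and PHAVU_004G018900g, was chosen by its measured change between infested and control leaves, so those values are a description and carry no test.

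Plants of both species were 3 weeks old and had been kept at 23 °C in cycles of 16 h light and 8 h dark, and all leaves, controls included, were detached. Control leaves carried no mites, and infested leaves carried 50 adult females of the spider mite *Tetranychus urticae* (London strain, reared on *P. vulgaris*) per leaflet for 24 h. Each species had 3 control and 3 infested libraries of the first true leaf. Nothing in the labels ties the libraries to separate plants, so p-values measure only the spread between these samples, which may be technical.

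Library totals ran from 13317991 to 17255676 counts in *P. lunatus* and from 17264823 to 19343807 in *P. vulgaris*. Levels are given as CPM, counts scaled to the TMM-adjusted size of each library, or as RPKM, the same per 1000 bases of gene length. The species were scaled separately, so a level in one table beside a level in the other is a side-by-side value and not a tested difference. In *P. lunatus* the 29 genes of the green leaf marker list summed to 56236 to 71214 CPM in controls and 22403 to 43762 CPM in infested leaves. Of these genes, 19 of 29 were lower and 0 higher, against 7.46% lower and 9.65% higher over all tested genes. At an unadjusted p under 0.05 edgeR still had 0 of them higher, as had DESeq2. The 19 calls dropped to 4 without infested library 2 or 3, to 7 without control library 2 and to 6 without control library 3. Without infested library 1 there were 27. The root and nodule list of 29 genes, picked by words in their product names, had 1 of 8 tested genes higher and 1 lower, near those shares. Of these calls, 0 held without infested library 2 or 3 and 1 without control library 1, 2 or 3. The root and nodule list summed to 508 to 706 CPM in controls and 653 to 826 CPM in infested leaves, with 13 and 15 of its genes at 0. The part of these lists in the results was not tested. In *P. vulgaris* the same words matched 2 green leaf genes, which summed to 2607 to 3508 CPM in controls and 2394 to 3126 CPM in infested leaves. Its 5 root and nodule matches summed to 327 to 423 CPM and 409 to 474 CPM. In whole leaves, fewer cells of a type and less RNA per cell cannot be told apart.

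In *P. lunatus* the expressed alpha-dioxygenase gene went from nearly silent to among the more abundant leaf transcripts. Pl04G0000018900.v1 lies on the plus strand of chromosome 4, from 1563561 to 1568619 in the coordinates of the deposited table, whose build is not given in the sources used here. Its 3 control libraries held 24, 38 and 8 reads, or 1.37, 2.66 and 0.579 CPM. Its 3 infested libraries held 1146, 4166 and 2892 reads, or 89.0, 276.9 and 214.3 CPM. The groups did not overlap, and the lowest infested library was 33.4-fold above the highest control. Infested library 1 stood lowest of its group, and control library 3 lowest of the controls. The means were 1.54 ± 1.05 and 193 ± 95.7 CPM (SD, n = 3 and 3), a log2 fold change of 6.97 ± 0.58 (SE from edgeR), or 125.2-fold. Leaving out control library 2 raised the log2 fold change to 7.57, and each other library left out gave between 6.61 and 7.31.

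The rank of the gene within the library moved with its level. Per length it stood at 0.596, 1.16 and 0.252 RPKM in the controls, where it ranked 18279th, 16884th and 19746th of the 43997 genes. In the infested libraries it stood at 38.7, 120.4 and 93.2 RPKM and ranked 3050th, 821st and 1144th. In infested library 2 its level per length was thus above that of 96.3% of the genes with any read. Its log2 fold change was the 9th highest of all 18523 tested genes, and the 5th highest among the 16571 whose log2 CPM averaged 1 or more. The gene was chosen by this change, so its rank is a description.

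In *P. vulgaris* the expressed family member started at a like CPM and ended lower. PHAVU_004G018900g lies on the plus strand of chromosome 4, from 1950512 to 1956987 in that table's coordinates, again without a stated build. Its control libraries held 14, 51 and 17 reads, or 0.717, 2.92 and 0.969 CPM. Its infested libraries held 1389, 630 and 736 reads, or 77.6, 36.4 and 40.5 CPM. The groups did not overlap, with the lowest infested library 12.5-fold above the highest control. Infested library 1 was the highest of its group, and control library 2 the highest control. The means were 1.54 ± 1.21 and 51.5 ± 22.7 CPM (SD, n = 3 and 3), a log2 fold change of 5.08 ± 0.46, or 33.8-fold. Without control library 2 the log2 fold change was 5.93, and each other library left out gave between 4.66 and 5.28.

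Per length, PHAVU_004G018900g had 0.327, 1.33 and 0.442 RPKM in controls and 35.4, 16.6 and 18.5 RPKM in infested leaves. It ranked between 16707th and 19625th of 29324 genes in the controls and between 3558th and 6829th in the infested libraries. Of the genes with any read, it stood above 9.75% to 22.1% in the controls and above 68.2% to 83.5% in the infested libraries. Its log2 fold change was the 17th highest of all 19360 tested genes, and the 10th highest of 16915 whose log2 CPM averaged 1 or more. This rank, too, is a description of a gene chosen by the change. Set side by side, mean levels per length in infested leaves were 84.1 ± 41.6 RPKM in *P. lunatus* and 23.5 ± 10.3 RPKM in *P. vulgaris* (SD, n = 3 each), and the control means were 0.668 ± 0.457 and 0.700 ± 0.551 RPKM. Whether the change differs between the species was not tested, since both genes were chosen for it.

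Each species had a further family member that was all but silent. Pl04G0000019200.v1 (chromosome 4, plus strand, 1574171 to 1587233) had 0 reads in the 3 controls and 0, 1 and 2 in the infested libraries. Since 0 reads allow up to 3, or 0.0665 CPM over the control group, and the infested group held 3 reads, no fold is given. PHAVU_004G019000g (chromosome 4, plus strand, 1960479 to 1966289) had 2, 5 and 6 reads in controls and 0, 3 and 4 in infested leaves. Its CPM means were 0.244 ± 0.125 and 0.131 ± 0.116 (SD, n = 3 each), and its groups overlapped. Neither passed the filter on low counts, so 2 of the 4 family members were tested. With that filter removed, the edgeR adjusted p was 0.37 in Pl04G0000019200.v1, and PHAVU_004G019000g had a log2 fold change of −0.85 ± 1.32 (adjusted p = 0.869). A change of either was not detectable at this depth. The sources used here do not give how reads shared by close copies were counted, and small counts in a silent copy are uncertain.

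**Figure D1:**
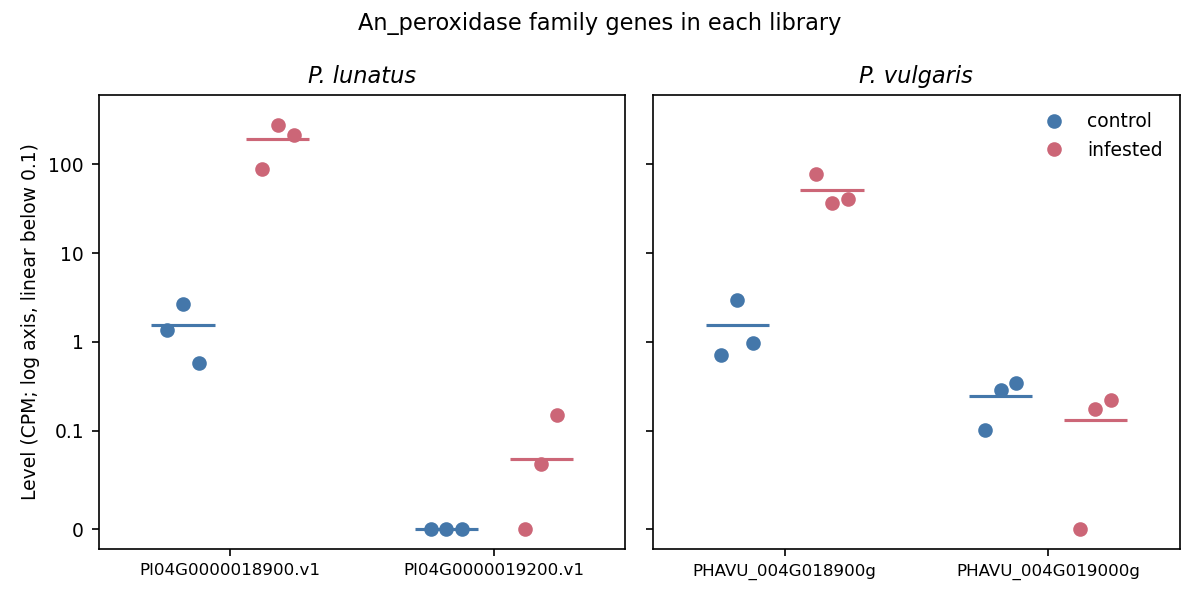
Level of each An_peroxidase gene in CPM (log axis, linear below 0.1) in the 3 control (blue) and 3 infested (red) libraries of each species, with group means as lines. The infested libraries of Pl04G0000018900.v1 lie between 89.0 and 276.9 CPM and those of PHAVU_004G018900g between 36.4 and 77.6 CPM, while the other gene of each pair stays at or below 0.342 CPM in all libraries.

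As background for these changes, 17.1% of the 18523 tested *P. lunatus* genes passed at an adjusted p below 0.05, with 1788 higher (9.65%) and 1382 lower (7.46%). With upper-quartile scaling the split was 1578 higher and 1680 lower. In *P. vulgaris* 0.976% of 19360 tested genes passed, with 181 higher (0.935%) and 8 lower (0.0413%). Ranges that did not overlap, with infested leaves higher, were found in 19.7% of tested genes in *P. lunatus* and 9.09% in *P. vulgaris*. Nothing is read from these shares for the chosen genes, whose contrast they describe.

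The family members lie next to each other in both species, on the same strand, with the expressed gene upstream of the silent one. In *P. vulgaris* a gap of 3491 bases with no gene model separates them. In *P. lunatus* the gap is 5551 bases, and it holds 2 short gene models without a read in any library, 1 of which carries a zinc-binding domain of reverse transcriptases. The deposited gene lengths are similar, at 2300 and 2441 bases in *P. lunatus* and 2194 and 1988 bases in *P. vulgaris*. The genomic spans differ more, since Pl04G0000019200.v1 covers 13063 bases against 5059 for its expressed neighbour, and the *P. vulgaris* genes cover 6476 (expressed) and 5811 bases.

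The genes around each pair were few, and their calls are read against the share of all tested genes called higher, 9.65% in *P. lunatus* and 0.935% in *P. vulgaris*. At those shares a count of 0 is near the background. Of the 14 gene models within 7 positions of Pl04G0000018900.v1, 7 were tested, 0 were higher and 1 was lower, and their log2 fold changes ran from −0.60 to 0.40. Of the 14 around PHAVU_004G018900g, 10 were tested and 0 passed in either direction, with log2 fold changes from −1.41 to 0.78. DESeq2 also called 0 of them higher in both species, and at an unadjusted p under 0.05 edgeR had 0 higher in *P. lunatus* and 1 higher and 1 lower in *P. vulgaris*. Directly upstream in *P. lunatus* lie 2 genes named WAT1-related protein At3g28050, of a family of membrane transporters. Pl04G0000018700.v1 had 9.36 ± 2.76 CPM in controls and 12.3 ± 2.45 in infested leaves, and Pl04G0000018800.v1 had 17.5 ± 3.57 and 15.2 ± 1.71 CPM (SD, n = 3 each). The *P. vulgaris* pair also has 2 genes of the same domain family (DUF6) upstream, PHAVU_004G018600g and PHAVU_004G018700g, and the latter had 59.0 ± 4.07 and 59.9 ± 5.56 CPM.

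Downstream, both loci hold a gene named ALTERED XYLOGLUCAN 4-like, of a family of cell wall acetyltransferases, at too few reads to test, followed by a gene with a BAH domain, a module found in chromatin proteins. Pl04G0000019600.v1 of the BAH family had 272 ± 34.6 CPM in controls and 254 ± 29.0 in infested leaves, and PHAVU_004G019400g had 264.6 ± 7.53 and 247.5 ± 12.3 (SD, n = 3 each). The single call, Pl04G0000019400.v1 with a 2'-5' RNA ligase domain, went from 12.7 ± 1.83 to 8.35 ± 0.962 CPM (log2 fold change −0.60 ± 0.17, adjusted p = 0.0472), against 7.46% of tested genes lower. Its adjusted p was 0.147 without control library 3, 0.164 without infested library 3, and above 0.05 with any of the 6 libraries left out. The call was also lost without the filter on low counts (adjusted p = 0.052). The gene overlaps Pl04G0000019300.v1 on the opposite strand by 978 bases, and whether counting used strand is not stated, so the reads of these genes cannot be told apart there.

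Pl04G0000019300.v1 carries the name alpha-dioxygenase 1 without the family. Its deposited domain is the 2'-5' RNA ligase superfamily, and its first 956 bases overlap the end of the silent Pl04G0000019200.v1 on the same strand. It had 15.2, 17.9 and 20.8 CPM in controls and 18.9, 18.6 and 20.3 CPM in infested leaves. The groups overlapped, and the log2 fold change was 0.10 ± 0.14 (edgeR adjusted p = 0.659). Every library held it at a level above that of the silent gene whose name it shares. Reads in the overlap of these genes cannot be told apart by strand, and how they were counted is not stated.

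**Figure D2:**
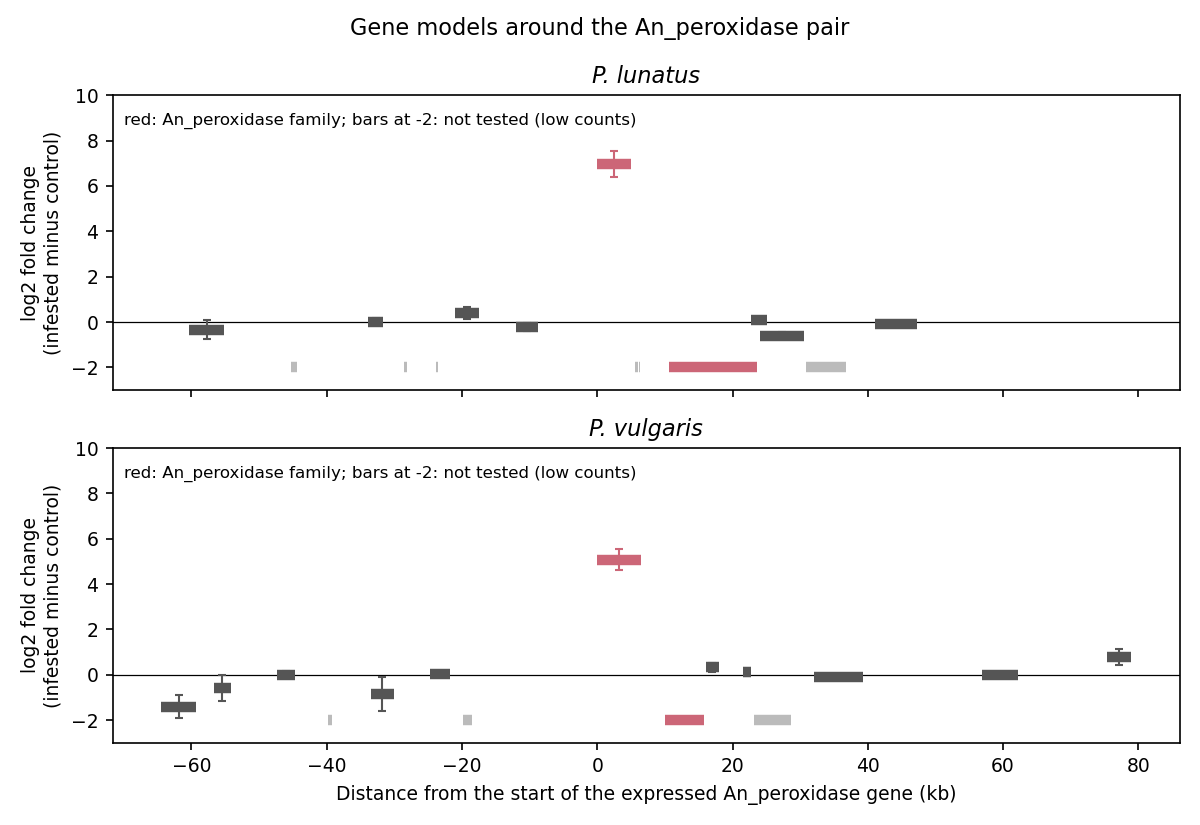
Log2 fold change (infested minus control, ± SE) of the gene models around each An_peroxidase pair, against distance in kb from the start of the expressed gene, with each bar as long as the gene model. Red bars are the An_peroxidase genes, and bars at −2 mark models with too few reads to test. The expressed member stands at 6.97 in *P. lunatus* and 5.08 in *P. vulgaris*, and tested neighbours lie between −1.41 and 0.78.

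Per length, the summed lipoxygenase transcripts exceeded those of alpha-dioxygenase in every library. The 28 lipoxygenase family genes of *P. lunatus* summed to 6477 to 8003 RPKM in controls and 19884 to 22438 RPKM in infested leaves. Pl04G0000018900.v1 equalled 0.00744%, 0.0171% and 0.00389% of that sum in the controls and 0.195%, 0.591% and 0.415% in the infested libraries. It stood above 10 to 12 of the 28 single lipoxygenases in controls and above 17 of 28 in each infested library. In *P. vulgaris* the 33 lipoxygenase family genes summed to 2177 to 2700 RPKM in controls and 4330 to 5144 RPKM in infested leaves. PHAVU_004G018900g equalled 0.0128% to 0.0494% of that sum in controls and 0.323% to 0.713% in infested leaves, above 14 to 16 and then 23 to 26 of the 33 genes.

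**Figure D3:**
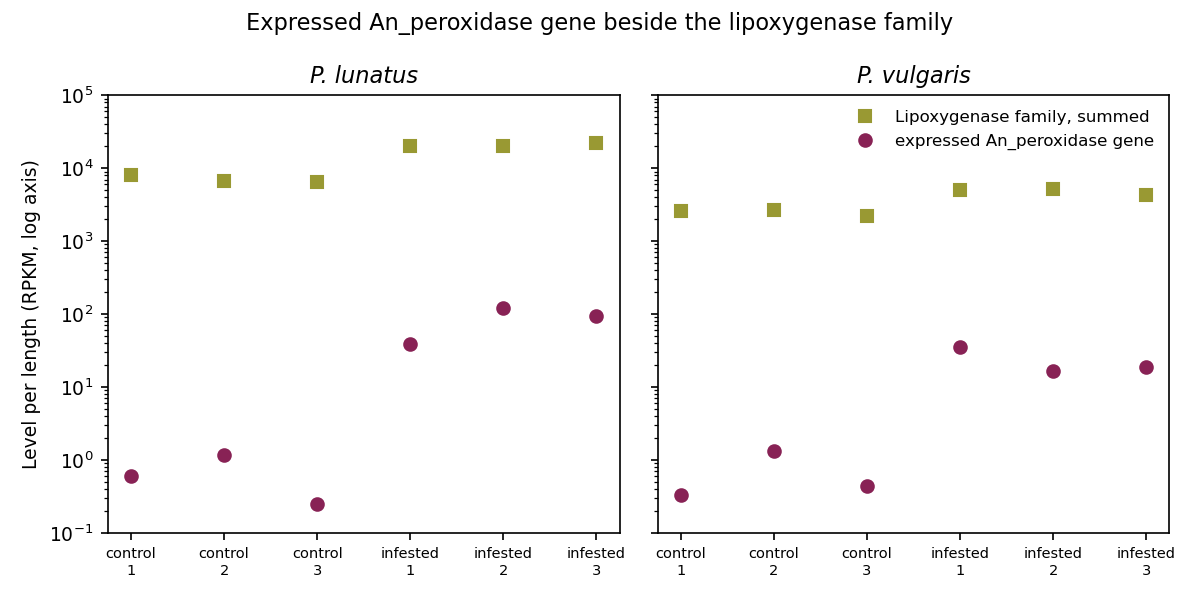
Level per length (RPKM, log axis) of the expressed An_peroxidase gene (circles) and of the lipoxygenase family summed (squares) in each library. The gene equals at most 0.0494% of the family sum in any control library and 0.195% to 0.713% of it in the infested libraries.

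Of the 18 tested lipoxygenase family genes in *P. lunatus*, 13 rose and 1 fell, against 9.65% and 7.46% of all tested genes. At an unadjusted p under 0.05 edgeR had 13 higher and 4 lower, and DESeq2 called 13 higher and 1 lower. The median log2 fold change of the family was 1.69, against −0.01 over all tested genes. By product name, 9 of 11 tested 9S-lipoxygenases and 4 of 6 tested 13S-lipoxygenases rose, and 1 of the latter fell. The 13S enzymes start the jasmonate route, and Pl06G0000306200.v1 of that class rose from 15.1 ± 1.16 to 416 ± 81.1 CPM, a log2 fold change of 4.78 ± 0.18 that was the highest of the family. In *P. vulgaris* 10 of 21 tested lipoxygenase family genes rose and 1 fell, against 0.935% and 0.0413% of all tested genes, with a median of 0.86. PHAVU_011G056500g rose from 32.6 ± 11.4 to 297.5 ± 23.1 CPM (adjusted p = 0.000162), PHAVU_010G128800g from 45.0 ± 2.85 to 79.2 ± 4.20 CPM, and PHAVU_005G156900g from 4202 ± 359 to 7408 ± 368 CPM (SD, n = 3 each). The call of the last was lost without any of the controls or without infested library 2 (edgeR adjusted p = 0.0582 to 0.0878). The highest log2 fold change of the family there, 5.09 ± 0.90, was that of the weakly expressed PHAVU_006G185300g (chosen after its values were seen), just above the 5.08 of PHAVU_004G018900g and within its SE. It had 5, 0 and 0 reads in controls and 97, 34 and 46 in infested leaves. It thus passed the filter on low counts through its infested libraries alone, and its values are a description. The 11 calls of *P. vulgaris* dropped to 3 without infested library 1, to 4 without control library 2 or infested library 2, to 6 without control library 3 and to 7 without control library 1.

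The *P. lunatus* list of lipoxygenase and hydroperoxide routes adds the enzymes that use lipoxygenase products. Of its 27 tested genes, 19 rose and 1 fell (median 1.22), against 9.65% higher and 7.46% lower over all tested genes. At an unadjusted p under 0.05 edgeR had 19 of them higher and 4 lower. All 4 tested allene oxide synthases, which lead toward jasmonate, rose. The fatty acid hydroperoxide lyase Pl05G0000226200.v1, which makes volatile aldehydes from lipoxygenase products, had 154.3, 135.9 and 141.6 CPM in controls and 423.6, 377.1 and 343.1 CPM in infested leaves, and rose by 1.41 ± 0.12 on the log2 scale (adjusted p = 0.000315; chosen after its values were seen). Its infested libraries were all higher, with the highest in library 1, where alpha-dioxygenase was lowest. Of 4 tested peroxygenases, 1 rose.

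A further list holds genes that release or desaturate fatty acids, and so supply the substrates of these oxygenases. Of its 32 tested members in *P. lunatus*, 11 rose and 1 fell (median 0.56), against 9.65% higher and 7.46% lower over all tested genes. The endoplasmic reticulum omega-3 fatty acid desaturase Pl06G0000179300.v1, which makes linolenic acid, rose from 44.3 ± 20.1 to 521 ± 124 CPM (3.56 ± 0.36, adjusted p = 0.000658). A chloroplast omega-6 desaturase, Pl03G0000231600.v1, rose by 1.40 ± 0.13 and patatin-like protein 2, a lipid acyl hydrolase (Pl01G0000021700.v1), rose from 868 ± 182 to 2977 ± 262 CPM. Phospholipase A1 DAD1 (Pl08G0000052100.v1), which releases linolenic acid for jasmonate in Arabidopsis anthers, had 0, 0.0701 and 0 CPM in controls and 1.40, 2.13 and 4.22 CPM in infested leaves. That is 1 read against 107 (chosen after its values were seen). The ratio per depth was 117.8, with an exact 95% interval of 20.7 to 4696 for counting error only. Libraries of a group differed by more than counting error, so this interval is too narrow and the ratio is a description.

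Lipase_3 family genes, a group of acyl hydrolases, had 10 of 31 tested members higher in *P. lunatus* in edgeR, against 9.65% of all tested genes. In edgeR or DESeq2 0 were lower (1 at an unadjusted p under 0.05), against 7.46% of all tested genes in edgeR. The median of the family was 0.28. The higher members included EDS1L (Pl09G0000261700.v1), an immune signalling protein of lipase fold, which rose from 16.1 ± 0.999 to 60.4 ± 5.92 CPM. The triacylglycerol lipase OBL1 (Pl02G0000106800.v1) rose by 1.29 ± 0.16 and the chloroplast phospholipase PLIP2 (Pl07G0000255500.v1) by 1.99 ± 0.24. In *P. vulgaris* edgeR had 1 of 28 higher and 0 lower, against 0.935% and 0.0413% of all tested genes, with a median of 0.07. At an unadjusted p under 0.05 edgeR had 8 higher and 1 lower, and DESeq2 had 4 higher and 1 lower. The edgeR call, PHAVU_001G156900g, went from 127.2 ± 42.4 to 379.3 ± 78.5 CPM (SD, n = 3 each; edgeR adjusted p = 0.0181). It was lost without control library 2 (adjusted p = 0.0913), infested library 1 (adjusted p = 0.0878) or infested library 2 (adjusted p = 0.0945).

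A list of enzymes that could act on alpha-dioxygenase products holds genes for the conversion of aldehydes and 2-hydroxy acids. Of 9 tested in *P. lunatus*, 1 rose and 2 fell (median 0.02), counts near the 9.65% higher and 7.46% lower over all tested genes. The aldehyde dehydrogenase of family 3 member I1 (Pl02G0000409300.v1), of a family that oxidises medium and long chain aldehydes, had 94.3, 124.4 and 95.3 CPM in controls and 399.4, 383.6 and 453.7 CPM in infested leaves. Its groups lay well apart, and it rose by 1.98 ± 0.15 on the log2 scale (adjusted p = 0.000178). A member F1 of that family (Pl11G0000067800.v1) fell, at 90.8 ± 11.1 CPM in controls and 58.0 ± 6.37 in infested leaves (adjusted p = 0.0121). With infested library 3 left out it missed the threshold (adjusted p = 0.0569).

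The 2-hydroxyacyl-CoA lyase Pl08G0000386700.v1, which shortens 2-hydroxy acids in animals, had 83.0 ± 13.7 and 91.3 ± 18.1 CPM with overlapping groups (SD, n = 3 each; edgeR adjusted p = 0.641; chosen after its values were seen). The 2-hydroxy-acid oxidase GLO1 (Pl05G0000061100.v1), best known as the glycolate oxidase of photorespiration, went from 2020 ± 231 to 1094 ± 325 CPM (adjusted p = 0.0299), and its call ended without control library 2 or 3 or infested library 2 or 3 (adjusted p = 0.0667 to 0.110). The count of 3 calls dropped to 1 without infested library 3.

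Of 21 tested aldehyde dehydrogenases (Aldedh) in *P. lunatus*, 3 rose and 2 fell (median −0.05), near the 9.65% and 7.46% over all tested genes. The count of 5 dropped to 2 without infested library 3 and to 3 without control library 2 or infested library 2. Betaine aldehyde dehydrogenase 1 (Pl09G0000261000.v1), which makes an osmoprotectant, was among the rises at 1.76 ± 0.29. In *P. vulgaris* 0 of 21 tested Aldedh genes passed in edgeR. Over all tested genes there, 0.935% were higher and 0.0413% lower, so a count of 0 is near the background. At an unadjusted p under 0.05 edgeR had 2 of them higher, and DESeq2 called 1 higher. The FMN_dh family, which holds the 2-hydroxy-acid oxidases, had 1 of 2 tested genes lower in *P. lunatus*, a call lost without control library 2 or 3 or infested library 2 or 3. In *P. vulgaris* 0 of its 3 tested genes passed in edgeR, again near the background. At an unadjusted p under 0.05 and in DESeq2 the count was also 0.

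Beta-oxidation removes carbons from fatty acids in pairs and also completes jasmonate synthesis in the peroxisome. The *P. lunatus* list of fatty acid activation and beta-oxidation also takes in long chain acyl-CoA synthetases. It had 6 of 16 tested members higher and 3 lower, against 9.65% and 7.46% of all tested genes, with a median of 0.44. The multifunctional protein AIM1 (Pl04G0000362200.v1) rose from 148 ± 2.70 to 362 ± 12.8 CPM (1.29 ± 0.10, adjusted p = 0.000205) and acyl-coenzyme A oxidase 1 (Pl02G0000129600.v1) by 0.84 ± 0.13. Long chain acyl-CoA synthetase 1 (Pl07G0000261100.v1), known in Arabidopsis for wax and cutin synthesis, fell from 186 ± 11.9 to 95.9 ± 12.9 CPM. The FA_desaturase, Caleosin and peroxidase names searched for in the family column matched 0 genes in either table.

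**Figure D4:**
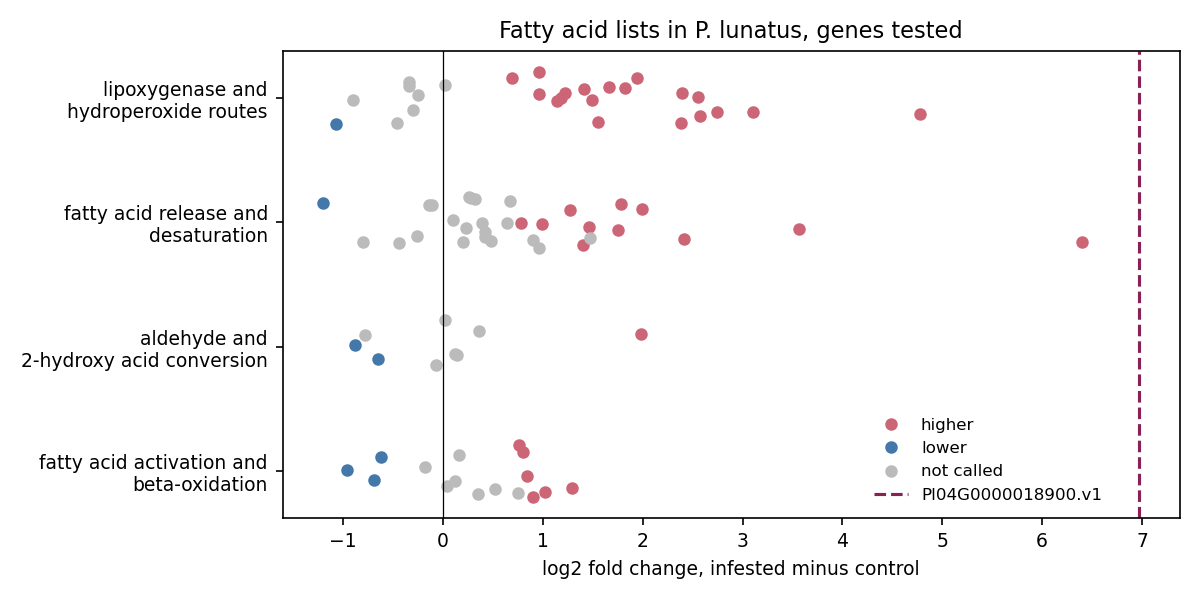
Log2 fold change (infested minus control) of each tested *P. lunatus* gene in 4 fatty acid lists, coloured by the edgeR call, with Pl04G0000018900.v1 as a dashed line at 6.97. Points of the first list reach 4.78, and those of the conversion list lie on both sides of 0.

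The genes whose profiles were most like that of Pl04G0000018900.v1 were found by the Pearson correlation of log2 CPM over the 6 libraries, which shares the split into infested and control with every responding gene and is given as a description. Of 16570 genes compared, 749 (4.52%) reached a correlation of 0.95. The highest were the wall-associated receptor kinase 5 Pl07G0000232700.v1 (0.9983), the glycerol-3-phosphate acyltransferase RAM2 Pl07G0000353400.v1 (0.9982) and the primary amine oxidase Pl09G0000243900.v1 (0.9981). They were followed by the cysteine-rich receptor-like kinase 25 Pl07G0000054900.v1 (0.9979) and the reticulon-like protein B1 Pl10G0000295900.v1 (0.9975). RAM2, an enzyme of lipid synthesis, had 0.514, 0.631 and 0.217 CPM in controls and 12.8, 34.7 and 30.5 CPM in infested leaves. Like alpha-dioxygenase, it was lowest in infested library 1 and in control library 3. Its choice by correlation over these same libraries favours such a shared order. The kinase Pl07G0000232700.v1 changed far less, from 66.2 ± 6.80 to 115 ± 6.25 CPM (SD, n = 3 each).

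For PHAVU_004G018900g, 138 of 16914 genes (0.816%) reached 0.95, and the highest were PHAVU_011G166200g (0.9988), PHAVU_011G143100g (0.9983), the P450 family gene PHAVU_011G092100g (0.9982), PHAVU_002G219300g (0.9976) and the ADH_N family gene PHAVU_003G287500g (0.9966). PHAVU_002G219300g had 1.84, 4.76 and 2.28 CPM in controls and 136.6, 77.4 and 82.5 CPM in infested leaves. It was highest in infested library 1 as well, which its choice by correlation over these same libraries favours. PHAVU_011G166200g moved from 53.0 ± 3.33 to 73.2 ± 3.47 CPM (SD, n = 3 each), and its call (edgeR adjusted p = 0.0414) ended with any of the 6 libraries left out, at up to 0.159 without control library 3. None of these 5 genes has a product name.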

How the data were processed

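The authors deposited 1 table for each species that holds unnormalized counts per gene and library and gene lengths in bases. Per the submitters' processing notes, HISAT2, featureCounts and DESeq2 were used, and their versions, the genome build, the annotation and the strand setting were not given in the sources used here. No ID of either table matched the reference gene table (0 of 29324 in *P. vulgaris*), so names come from the deposited tables. Each species was fitted alone with edgeR 4.0.16 in R 4.3.3: TMM scaling, filterByExpr (minimum count 10), quasi-likelihood test, and Benjamini-Hochberg adjustment over all genes tested, called below 0.05. Log2 CPM used a prior count of 2. The SE is the log2 fold change over the root of its F statistic. The fit was also run on counts simulated from its own dispersions, with changes set only in well counted genes. That run does not cover genes with few reads, and its outcome is not given here. Alternatives were other scaling factors, no filter, DESeq2 1.42.0, the replicate number as a block, and each library left out. Where a library left out leaves 2 in a group, the spread is pooled with the other group.

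Genes named are the family members, tested neighbours, from each list the 3 calls of smallest p, and the 5 tested genes most like each expressed member among those whose log2 CPM averaged 1 or more. The members and lists were chosen with earlier results of these data known. The window of 7 gene models on each side and the 2 marker matches in *P. vulgaris* were set after the tables were seen. No pair of libraries within a group agreed within counting error.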

Additional observations from a re-analysis of the deposited data

How the results depend on the processing

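The log2 fold change of Pl04G0000018900.v1 ran from 6.61 to 7.57 with each library left out and from 6.91 to 6.97 under the other alternatives, all within the replicate spread. That of PHAVU_004G018900g ran from 4.66 to 5.93 and from 5.04 to 5.08, and its 5.93 without control library 2 lay beyond the replicate spread of 0.81. The *P. lunatus* count of 3170 called genes ran from 1317 to 3204 with a library left out (1317 and 1485 without infested library 3 and 2, and 2066 without control library 3). The *P. vulgaris* count of 189 ran from 92 to 172 (92 and 100 without infested library 1 and 2, and 100 and 122 without control library 2 and 3) and was 465 with DESeq2. The cause was not tested. With the replicate number as a block, the counts were 1617 and 539. The numbers did not pair the libraries in *P. lunatus*, where correlations of same-numbered deviations were −0.22, 0.0487 and −0.184. In *P. vulgaris* those correlations were 0.138, 0.0852 and 0.206, and each library correlated best with its own number. Whether the numbers pair the *P. vulgaris* libraries was not settled. Under the block, calls in the list of fatty acid activation and beta-oxidation dropped from 9 to 5 and green leaf marker calls from 19 to 5. Green leaf marker calls were 4 without infested library 2 or 3, 7 without control library 2, 6 without control library 3 and 27 without infested library 1. No named gene with a call reversed its direction under any alternative run, while uncalled neighbours near 0 changed sign, such as Pl04G0000018400.v1 (0.01, and −0.17 without infested library 1). Depth limits the silent family members, at 3 to 13 reads per group where any were seen.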

Other observations

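The order of the infested libraries in alpha-dioxygenase was set beside that of other genes. In *P. lunatus* Pl04G0000018900.v1 was highest in infested library 2, then 3, then 1. That order was found in 15.3% of the other 1787 genes called higher, in 16.3% of the 18523 tested genes and in 2 of 13 lipoxygenase family genes called higher. Infested library 2 was the highest of its group in 19.3% of those 1787 genes and in 29.9% of the tested genes. The green leaf marker list summed to 43762 CPM in infested library 1, where alpha-dioxygenase was lowest, and to 22403 and 23406 CPM in libraries 2 and 3. Its part in the spread of alpha-dioxygenase was not tested. The lipoxygenase family sum was flatter over the same libraries, at 67683, 69795 and 76692 CPM. In *P. vulgaris* PHAVU_004G018900g was highest in infested library 1, then 3, then 2. That order was found in 27.8% of the other 180 genes called higher, in 14.9% of the tested genes and in 3 of 10 lipoxygenase family genes called higher. Infested library 1 was the highest of its group in 58.9% of those 180 genes and in 35.4% of the tested genes.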
